A study of Zea mays with 4 samples.

Results

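The study sequenced RNA from kernels of maize B73, an inbred line, collected 6 days after pollination. Per the labels, all 4 libraries are replicates of 1 group and hold central starchy endosperm, where the kernel stores its starch. Plants were grown in a greenhouse and self-pollinated, the tissue was cut from kernel sections by laser-capture microdissection, and the poly-A RNA was amplified before sequencing. The labels name neither plants, ears nor kernels, so the spread between replicates may be technical.

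The genes described here are those with few reads in replicate 4 alone. Each level is in RPM, which is a model's reads for every 1000000 reads counted on all models of its library. A model was taken when its mean over replicates 1 to 3 was at least 5 RPM and when its level in replicate 4 was at least 3-fold below the lowest of replicates 1 to 3, with 0.5 RPM added to each level. Models with equal reads in every library were counted once. Of 110028 models in the files, 14494 had a mean of at least 5 RPM, and 132 of these met the rule, which is 0.911%. A further 4 models had the same reads as one of the 132. The members were chosen by their measured RPM in replicates 1 to 4, so their low level in replicate 4 is a description and was not tested. Without replicate 3, the rule took 206 models, of which 130 were among the 132.

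The basal endosperm transfer layer (BETL) is a sheet of epidermal cells at the base of the kernel whose ingrown walls take up sugars and amino acids from the mother plant. It is known for small secreted proteins, many of them rich in cysteine, among them the BETL, BAP (basal layer antifungal protein) and MEG (maternally expressed gene) families. The embryo-surrounding region (ESR) lines the cavity around the embryo and makes small secreted ESR proteins with a CLE-type signalling motif. Neither domain is part of the central starchy endosperm named by the labels.

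The label of a transfer-layer pattern was set beside marker lists. The lists were chosen with earlier results of these data known, and both meg2 models were named as markers of this part beforehand. The overlap is therefore a description and no independent check of the label. Of 17 models on the BETL list, 12 were members, and of 4 on the ESR list, 3 were members, where 0.911% of all models at 5 RPM or more were. None of the 8 aleurone, 10 central starchy endosperm, 7 embryo and 5 maternal or green tissue models was a member, but only 6, 4, 2 and 1 of these had the mean of 5 RPM that the rule asks for, against 15 of the BETL models and 3 of the ESR models. The models under that level could not have been members. The members thus held ESR genes beside BETL genes, and 117 of the 132 were on neither list. A RefSeq gene row was found for 59 members, 21 of them with a gene name, and 73 matched no row. How alike the genes within the MEG, BAP, BETL and ESR groups are in sequence was not examined. Where copies are near-identical, reads may have been split or shared between them.

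**Figure D1:**
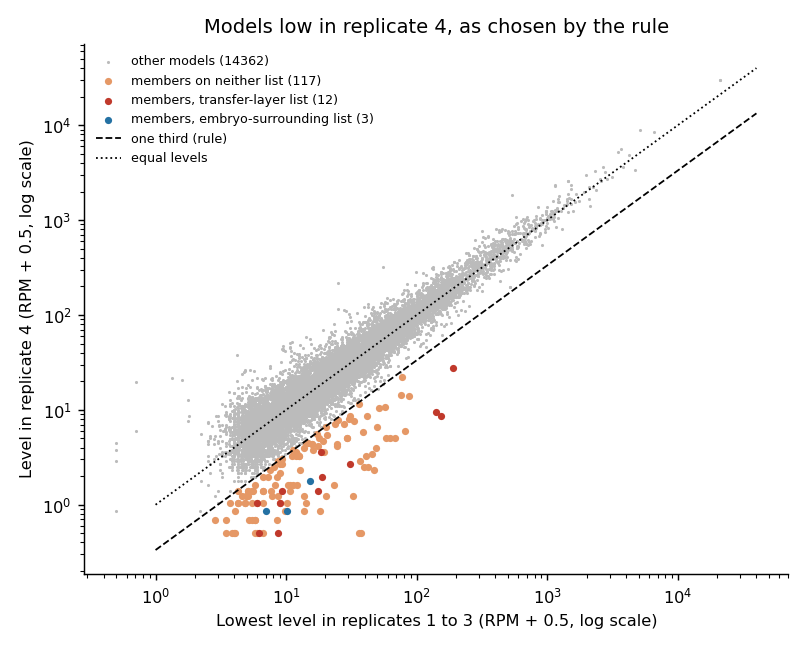
Each point is a gene model with a mean of at least 5 RPM in replicates 1 to 3, plotted by its lowest level in those replicates (x axis) and its level in replicate 4 (y axis), both as RPM + 0.5 on log scales. The 132 members lie on or below the dashed line, which is the rule itself, and the other 14362 models lie above it.

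Replicates 1 to 4 held 3432952, 5428283, 4754684 and 5477465 counted reads, so replicate 4 was the deepest. Across the 14494 models Pearson's r of log2 levels was 0.930 to 0.950 for pairs with replicate 4 and 0.970 to 0.976 for the other pairs, which describes agreement across genes that are not independent. The endosperm PLATZ-type factor gene fl3 had 2674, 2188, 2107 and 1400 RPM and the starch synthase gene du1 had 94.4, 95.2, 99.1 and 102 RPM, and both are markers of the labelled tissue. Of the 10 models on the central starchy endosperm list, these and those of ss1 and ae1 (GRMZM2G032628) were the 4 with a mean of at least 5 RPM. The other 6 were low or without reads, among them o2 with no read in any library and sh2 with 0.291 to 0.631 RPM. A level of 3 reads equals 0.548 RPM in replicate 4 and 0.553 to 0.874 RPM in the others. Floors and intervals cover counting error only, because amplified reads are not independent molecules.

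Together the members took 3272, 5687 and 5010 RPM in replicates 1 to 3 and 381 RPM in replicate 4. The members' median level stood at 12.4, 17.96 and 15.1 RPM in the first 3 libraries, against 1.46 RPM in replicate 4. Member by member, the ratio of replicate 4 to the lowest other library, with 0.5 RPM added to each, had a median of 0.184 and ran from 0.0133 to 0.333. In replicate 4, 11 members had no read and 37 had 3 reads or fewer, whereas every member had more than 3 reads in each other library. Members were found at all levels, making up 1.19% of models at a mean of 5 to 10 RPM and 0.495% of those at 100 RPM or more. In bulk samples such as these, fewer cells of a type and less RNA per cell cannot be told apart.

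Among BAP genes, named for the antifungal activity of their products, betl2 (GRMZM2G152655, also named bap2) had 191, 436 and 329 RPM in replicates 1 to 3 and 27.2 RPM in replicate 4. It kept 149 reads in replicate 4, which is more than any other member had there, with an exact 95% Poisson interval of 23.0 to 31.9 RPM. The gene bap1a (GRMZM2G008271) had 5.53, 13.3, 13.3 and 0.548 RPM, and bap1b (GRMZM2G008403) had 8.74, 20.8, 20.8 and 0.913 RPM. Both bap1 genes were lowest in replicate 1 among the first 3 libraries, where replicates 2 and 3 were alike.

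The gene bap3b (GRMZM2G133370) had 8.45, 18.1, 15.8 and 0.548 RPM in replicates 1 to 4. Its relative bap3a (GRMZM2G133382) had 8.16, 18.2 and 10.9 RPM and no read in replicate 4. Against the floor of 3 reads in replicate 4, the level of bap3a in replicate 1 was 14.9-fold higher, with counting error in replicate 1 left out. All members of the BAP family were thus highest, or level with the highest, in replicate 2.

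MEG1 encodes a small cysteine-rich peptide that is expressed from the maternal allele in early endosperm and is known to promote transfer-cell identity. Its model GRMZM2G354335 had 18.4, 36.3, 40.0 and 1.46 RPM in replicates 1 to 4. The paralog named meg2, whose reference row also lists MEG6, is covered by a pair of models. The reference gives both to 1 gene, so their reads may come from the same transcripts. Of these, GRMZM2G088896 had 154, 264, 178 and 8.22 RPM and GRMZM2G094054 had 140, 229, 169 and 8.95 RPM. In both meg2 models the 3 higher libraries lay within 1.72-fold of each other, while replicate 4 was at a ratio of 0.0565 and 0.0672 to the lowest of them.

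The remaining BETL members encode small transfer-layer proteins. The founding marker betl1 (GRMZM2G082785) had 17.2, 25.6, 32.8 and 0.913 RPM, betl9 (GRMZM2G087413) had 18.1, 52.7, 57.6 and 3.10 RPM, and betl10 (GRMZM2G091445) had 30.6, 59.9, 55.7 and 2.19 RPM. The gene betl3 (GRMZM2G175976) had 5.83, 9.76 and 5.68 RPM and no read in replicate 4. The floor of 3 reads there lay 10.4-fold below its level in replicate 3, with counting error in replicate 3 left out. Of these genes, betl9 spanned the widest range among replicates 1 to 3, at 3.19-fold, and betl3 the narrowest, at 1.72-fold.

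The 5 models of the BETL list that were no members differ in how far they are from the rule. The gene betl4 had 3.50, 7.92, 7.99 and 1.28 RPM, lowest in replicate 4. Its ratio of 0.445 rests on 12 reads in replicate 1 and 7 in replicate 4. The response regulator gene tcrr1 had 1.46, 3.68, 5.89 and 0 RPM, and mn1, a cell wall invertase that splits sucrose at the kernel base, had 0.583, 2.95, 4.42 and 0.365 RPM, both with a mean under 5 RPM. In contrast, ebe2 had 9.90, 14.2, 14.3 and 7.30 RPM. The gene ebe1, known from the basal endosperm, had 26.2, 22.1, 25.9 and 27.2 RPM, so replicate 4 was its highest library. The ratio of replicate 4 to the lowest other library was 1.23 for ebe1 and 0.750 for ebe2, so these models did not share the low level of the members. For tcrr1 it was 0.256, so under the rule this model met the ratio limit and failed on level only. That ratio compares 5 reads in replicate 1 with 0 in replicate 4, so the added 0.5 RPM largely sets it. For mn1 it was 0.799, from 2 reads in each of the libraries compared, against 16 and 21 reads in replicates 2 and 3. With so few reads the ratios cannot show whether tcrr1 or mn1 shared the low level.

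The 3 ESR members were at low levels throughout. The model named esr2 (GRMZM2G315601), whose reference row also lists ESR1, had 20.4, 17.9, 14.7 and 1.28 RPM in replicates 1 to 4. The model named esr1 (GRMZM2G046086) had 12.5, 11.4, 9.67 and 0.365 RPM, and esr3 (GRMZM2G140302) had 7.57, 14.6, 6.52 and 0.365 RPM. In the first 2 of these, replicate 1 was the highest library, which was the case for none of the 12 BETL members.

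**Figure D2:**
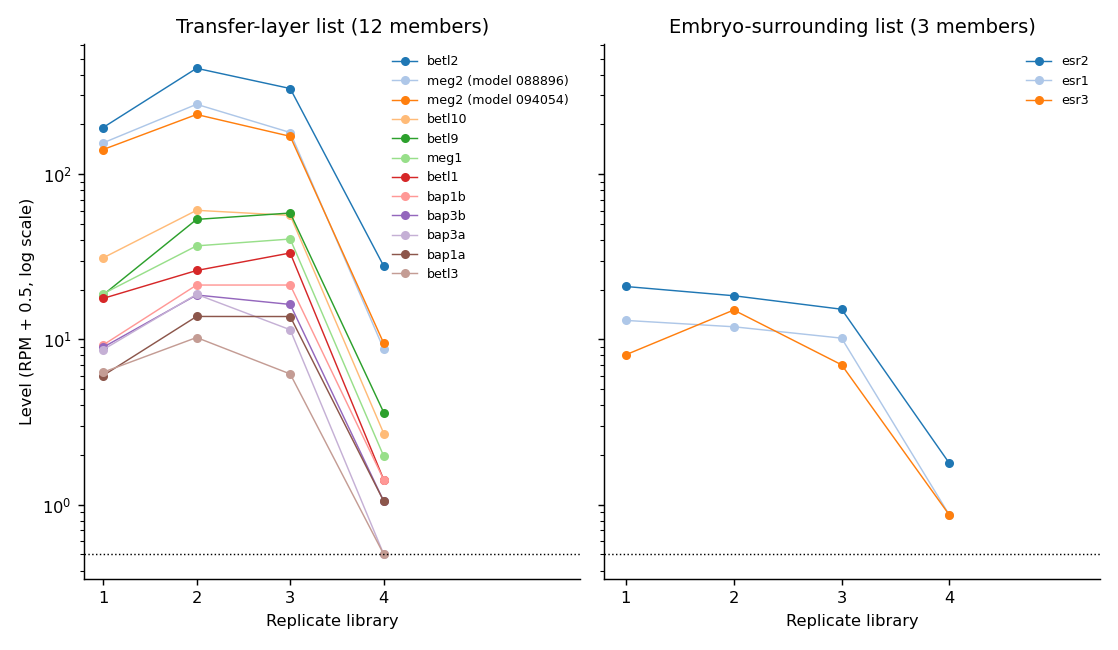
Level of each named member of the BETL list (left) and the ESR list (right) in the 4 replicate libraries, as RPM + 0.5 on a log scale. Lines join the values of 1 model and imply no order, and the dotted line marks 0 reads. Each model has its lowest point in replicate 4, and most BETL models lie lower in replicate 1 than in replicates 2 and 3.

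A further 6 members carried a gene name and were on neither list. The cystatin gene cc8 (GRMZM2G401374), an inhibitor of cysteine proteases, had 68.2, 140, 85.6 and 4.56 RPM. The serine protease inhibitor gene MPI (GRMZM2G028393, also named sci1) had 18.1, 15.3, 15.1 and 3.83 RPM. The 2 inhibitor genes differed in how near they came to the rule, with ratios of 0.0738 and 0.277.

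Among the others, BURP7 (GRMZM2G032145), named for the BURP domain of plant wall proteins, had 6.12, 22.3, 19.98 and 0.913 RPM. The male sterility gene ms8 (GRMZM2G119265) had 13.4, 19.3, 11.4 and 2.74 RPM, and dhar2 (GRMZM2G005710), named for a dehydroascorbate reductase that recycles ascorbate, had 7.57, 14.7, 12.4 and 2.01 RPM. The model GRMZM2G078118, matched both by fdh1 and by a locus number, had 7.28, 5.34, 4.42 and 0.730 RPM. With TMM scaling, described below, dhar2 no longer met the rule, at a log2 ratio of -1.55.

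Several of the 10 members with the largest read share carried no gene name. The model GRMZM2G355742 had 75.7, 314, 451 and 13.9 RPM, and GRMZM2G355761 (LOC100279037) had 40.8, 173, 248 and 8.22 RPM, so both were highest in replicate 3. The model GRMZM2G115340 (LOC100286296), with the same reads as GRMZM2G179248, had 86.2, 201, 181 and 13.5 RPM. The model GRMZM2G502035 had 80.7, 146, 89.4 and 5.48 RPM. These 4 were lowest in replicate 1 among the first 3 libraries, as betl2 was.

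Another pair among the 10 had its lowest level of the first 3 libraries in replicate 3. The model GRMZM2G091054 had 105, 205, 56.4 and 10.2 RPM, and GRMZM2G041714 (LOC100273332) had 127, 160, 76.8 and 21.7 RPM. The marker model GRMZM2G136771 (LOC100279046) had 13.7, 57.1, 46.5 and 0.548 RPM, the last from 3 reads.

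The lowest ratios of replicate 4 to the lowest other library belonged to unnamed models. The models GRMZM2G534293 and GRMZM2G534297 had no read in replicate 4 and 37.0, 64.3 and 53.2 RPM and 35.5, 60.2 and 51.1 RPM in replicates 1 to 3. Against the floor of 3 reads in replicate 4, their levels in replicate 1 were 67.5-fold and 64.9-fold higher. These folds leave out counting error in replicate 1. The reads of both models differed by at most 6.30% in any library, so they may count the same transcripts. GRMZM2G481948 had 41.7, 40.0, 31.8 and 0.730 RPM, GRMZM2G573952 had 30.3, 31.5, 17.7 and 0.365 RPM, and GRMZM2G007784 had 46.3, 94.3, 68.1 and 1.83 RPM. Over the 11 members without a read in replicate 4, the fold of the lowest other library over the floor of 3 reads ran from 5.38 to 67.5.

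At the limit of the ratio, the members just inside were GRMZM2G134340, GRMZM2G448142 and GRMZM2G161154 at 0.330, 0.331 and 0.333, and the models just outside were GRMZM2G159953, GRMZM2G020532 and GRMZM2G143535 at 0.334, 0.338 and 0.341. At the limit of the level, GRMZM2G006468, GRMZM2G102365 and GRMZM2G322765 had means of 5.22, 5.43 and 5.46 RPM and were taken, while GRMZM2G070399, GRMZM2G399450 and GRMZM5G888457 had 4.98, 4.95 and 4.92 RPM and were not. No gap in the values separated the members from the models outside. TMM scaling moved the median log2 level of all models in replicate 4 by 0.11, and 120 of the 132 then still met the rule.

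Replicate 4 was set aside to ask how the members varied among replicates 1 to 3. The rule used the mean and the lowest of these levels, so what follows describes the members and is no independent test of them. The median SD of log2 levels over replicates 1 to 3 was 0.46 for members and 0.17 for all 14494 models, and 0.44 against 0.20 for those below 50 RPM. Without replicate 1 it fell to 0.28 for members and 0.14 for all models. A chi-square test of whole reads against library totals, with Benjamini-Hochberg adjustment over all 14494 models, called 78 of the 132 members (59.1%) at an adjusted p under 0.05, where 21.6% of all models were called. It compares these libraries and not conditions, and it is more sensitive for models with many reads. It also treats reads as independent molecules, which amplified reads are not, so its p-values may be too small and its calls are read only as counts beside those over all models. Without replicate 1 it called 47 members, where 15.9% of all models were called.

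The main direction was a lower level in replicate 1. Of the 132 members, 75 had their lowest level of the 3 libraries in replicate 1 (34% of all models), and 30 their highest (33.3% of all models). Replicate 2 was at least 1.5-fold above replicate 1 in 69 members (4.83% of all models), replicate 3 in 49 (5.71% of all models), and both in 45 (2.39% of all models). In the chi-square test 53 members were called with replicate 1 lowest, where 6.4% of all models were, and 10 with replicate 1 highest, where 6.65% of all models were.

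The median log2 ratio of replicate 2 to replicate 1 was 0.62 over the members and 0.02 over all models. For replicate 3 over replicate 1 it was 0.22 against -0.02, and for replicate 3 over replicate 2 it was -0.24 against -0.04. The quartiles of the first ratio among members, -0.01 and 1.08, show that a part of them did not share the lower level in replicate 1. In 42 members both ratios to replicate 1 lay within 1.5-fold, which is 31.8%, where 84.2% of all models did.

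BETL members followed the main direction. The chi-square test called 11 of the 12, each with replicate 1 lowest, where 6.4% of all models were called that way, and betl3 was not called. These models are not independent, since both meg2 models may count the same transcripts and tandem copies may share reads. The log2 ratio of replicate 2 over replicate 1 was 1.19 for betl2 and 1.52 for betl9, and that of replicate 3 over replicate 1 was 0.79 for betl2 and 1.65 for betl9. For bap1a both log2 ratios were 1.19. Of the 3 ESR members, esr3 was called, with replicate 2 highest, whereas esr2 and esr1 were not, beside 21.6% called over all models. The difference between BETL and ESR members was not tested.

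Of the members on neither list, 66 of 117 were called by the chi-square test, where 21.6% of all models were, and 42 of them with replicate 1 lowest, where 6.4% of all models were. BURP7 and the marker model GRMZM2G136771 stood at log2 ratios of 1.78 and 2.02 for replicate 2 over replicate 1. The cystatin gene cc8 stood at 1.04 for replicate 2 over replicate 1 and 0.33 for replicate 3 over replicate 1. MPI was not called, with libraries 1 to 3 within 1.19-fold of each other. Its reads differed by at most 2.35% from those of the member GRMZM2G028656 and by at most 9.72% from those of GRMZM2G470862 in any library. These models may count the same transcripts.

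The widest spread among replicates 1 to 3 was seen in 7 unnamed members, chosen after their values were seen, whose highest library exceeded the lowest by at least 5-fold. Besides GRMZM2G355742 and GRMZM2G355761 these were GRMZM2G080263, GRMZM2G323925, GRMZM2G496821, AC203847.3_FG004 and AC203847.3_FG009. In each of them replicate 2 was 3.13 to 4.23 times and replicate 3 was 5.22 to 6.09 times replicate 1, while replicate 4 was at 0.151 to 0.225 of replicate 1. Their values moved together closely, and pairs among them may share reads, since AC203847.3_FG009 and GRMZM2G080263 differed by at most 0.350% in any library and AC203847.3_FG004 and GRMZM2G323925 by at most 4.76%. At the other end, 9 members varied by less than 1.2-fold among replicates 1 to 3.

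**Figure D3:**
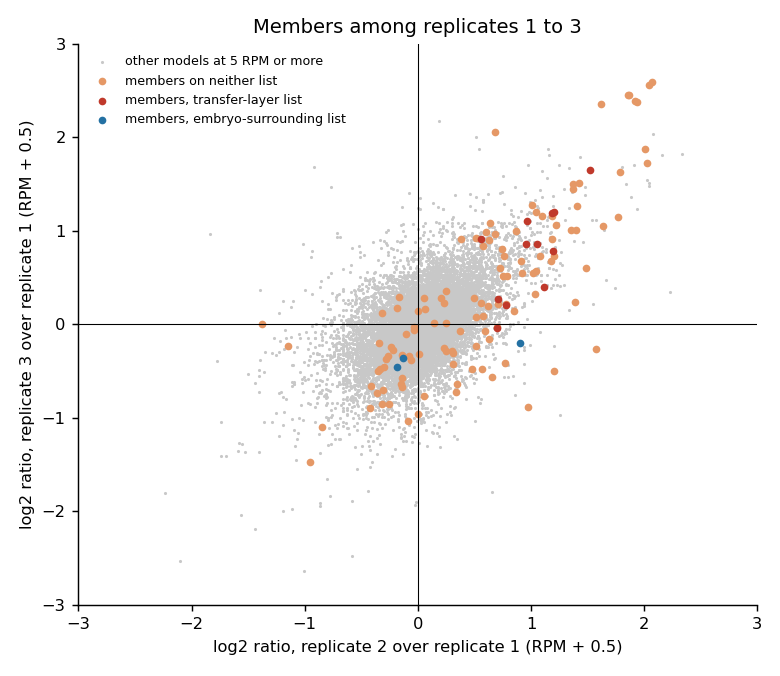
Log2 ratio of replicate 2 to replicate 1 (x axis) and of replicate 3 to replicate 1 (y axis), from RPM + 0.5, for models with a mean of at least 5 RPM, with 8 models outside the axes. The grey cloud is centred near 0, BETL members other than betl3 lie to the upper right, 2 of the 3 ESR members lie at the lower left of the centre, and 7 unnamed members form the group with the largest ratios.

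Position in the genome was not used by the rule. In the gene order of RefSeq for Zm-B73-REFERENCE-NAM-5.0, the 59 matched members stood for 58 annotated genes. Of these, 16 (27.6%) had another member within 5 annotated genes, and 4 (6.90%) had one as the next gene. Among 9175 annotated genes of the other models with a mean of at least 5 RPM, 94 (1.02%) had a member within 5 genes and 16 (0.174%) as the next gene. Members of 1 family are often tandem copies, and such copies may share reads.

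The members near each other fell into 6 runs. One held esr2, esr1 and esr3, and another held meg2, GRMZM2G344323 and meg1. The models bap1a and bap1b were next to each other, and the run of bap3a, bap3b and GRMZM2G123411 (LOC100279139) began 7 annotated genes further on. The last 2 runs placed members without a name beside known BETL genes. GRMZM2G066546 (LOC100384283) and GRMZM5G812796 (LOC100279135) lay near betl1, and GRMZM2G027472 (LOC100279126) lay near betl2.

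The unnamed members of these runs had levels of their own in each library. GRMZM2G066546 had 49.5, 83.1, 87.3 and 6.02 RPM, and GRMZM5G812796 had 4.95, 7.92, 9.67 and 0.183 RPM, both lowest of the first 3 libraries in replicate 1, as betl1 was. GRMZM2G027472 had 40.5, 93.0, 77.0 and 2.74 RPM, in the same order of libraries as betl2. GRMZM2G123411 had 12.2, 33.3, 30.1 and 1.83 RPM, and GRMZM2G344323, which matches 2 reference rows, had 48.6, 75.2, 55.7 and 3.47 RPM. In all 5 replicate 4 was lowest, as the rule asked, and replicate 1 was the next lowest.

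**Figure D4:**
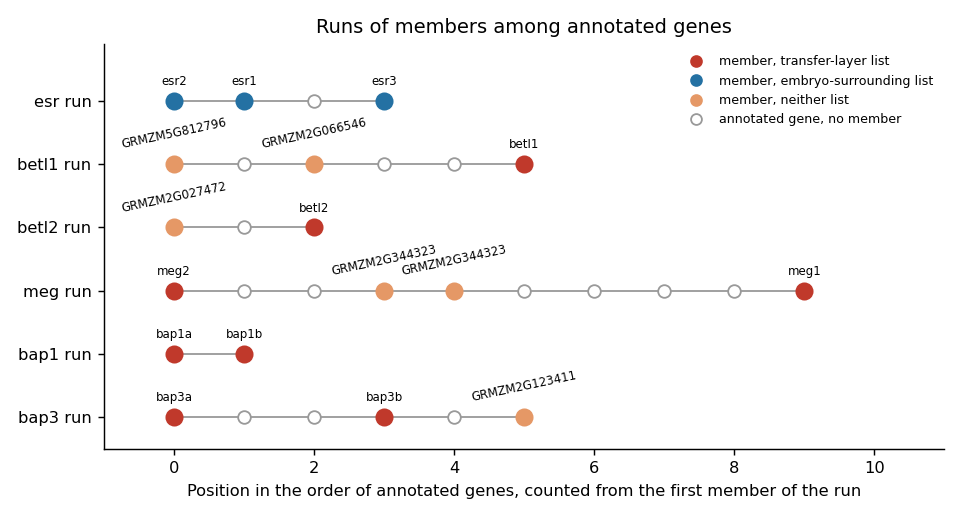
The 6 runs of members that lie at most 5 annotated genes apart, in gene order (x axis, counted from the first member of each run). Filled points are members, coloured by marker list, and open points are annotated genes that are no members. GRMZM2G344323 matches 2 adjacent rows and appears as 2 points.

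By summed level, 2 of the other marker lists were highest and 2 were lowest in replicate 4. The latter were lower there by less than the BETL and ESR lists, and models within a list did not all follow its sum. The 17 BETL models summed to 647, 1234 and 986 RPM in the first 3 libraries and to 90.2 RPM in replicate 4, of which ebe1 and the other 4 models that were no members gave 36.1 RPM. The 4 ESR models summed to 41.9, 45.3, 32.6 and 2.01 RPM. The 8 aleurone models summed to 193, 201, 220 and 241 RPM and the 7 embryo models to 25.6, 26.3, 31.97 and 46.6 RPM, both highest in replicate 4. The aleurone models did not go together. Those of nkd1 (44.0, 44.8, 69.6 and 105 RPM), nkd2 and cr4 were highest in replicate 4. Those of sal1 (58.8, 59.3, 56.8 and 42.0 RPM), dek1 and vpp1 were lowest there. The 10 models of the central starchy endosperm summed to 3011, 2491, 2430 and 1792 RPM, mostly from fl3. Unlike fl3, the models of du1, ss1 (25.3, 27.3, 24.8 and 32.3 RPM) and ae1 (GRMZM2G032628, 212, 174, 195 and 256 RPM) were highest in replicate 4. The 5 models of maternal and green tissue summed to 1055, 1151, 918 and 552 RPM, almost all from the pyruvate phosphate dikinase gene ppdk1. No other model on that list exceeded 1.28 RPM in any library, so its sum describes ppdk1 alone and is no measure of maternal or green tissue. Both of these sums were lowest in replicate 4. The part of these differences in the members' values was not tested.

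**Figure D5:**
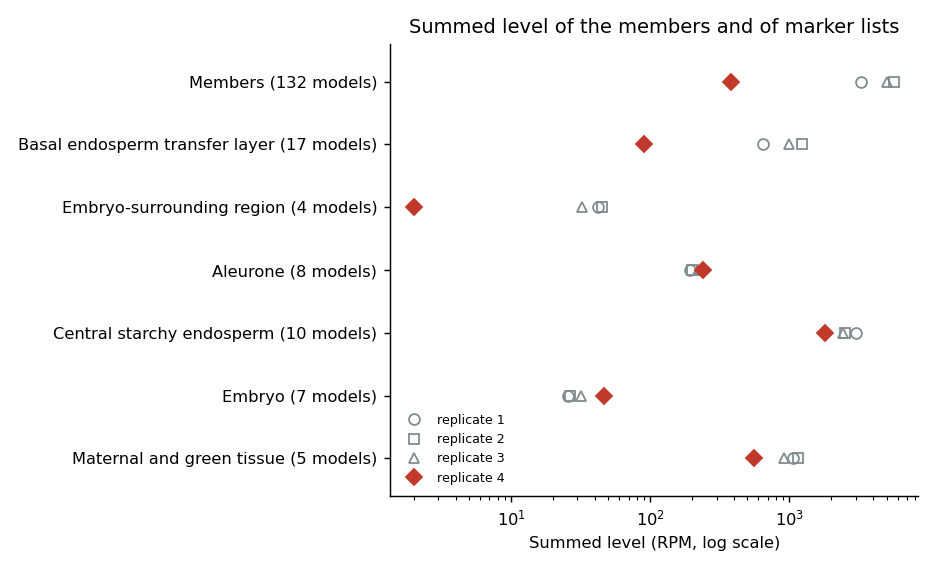
Summed level in RPM, on a log scale, of the 132 members and of each marker list in replicates 1 to 3 (open symbols) and replicate 4 (filled diamonds). The members, the BETL list and the ESR list lie far lower in replicate 4. The central starchy endosperm sum, mostly fl3, and the maternal and green sum, almost all ppdk1, are lowest there by less. The aleurone sum and the embryo sum, almost all ole1 and wox2a, are highest there, though not every aleurone model is.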

How the data were processed

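The deposited values are a signal per gene model that the authors scaled so that each library sums to 4773346, as the values show. Bedtools is named in the submitters' processing notes without version or role, while the aligner, the build and the handling of strand were not given in the sources used here. Within 0.01 of a read, each value above 0 was a whole multiple of its library's smallest such value, and division by that value gave whole reads. In replicate 3 this step is 1.00 to 3 digits, so a check by step size alone could not tell it from rounding, though all its values fell within 3.13e-05 of a read of a multiple. The chi-square test and the scaling alternatives use these reads, and the design had fixed that test for whole reads.

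RPM was computed as reads per 1000000 reads of the library. Log2 values add 0.5 RPM. TMM factors came from edgeR 4.0.16 and size factors from DESeq2 1.42.0, in R 4.3.3, and tests were run with scipy 1.17.1 and tested on simulated data. Names came from RefSeq synonyms, which matched 18786 of the 110028 models. The BETL entry mrp1 was left out because its row carries an unrelated second name, so its level is not given here. Of the 27 entries of the BETL list, 8 had no model, mrp1 among them. The rule also leaves out 3 sugar transporter models, none of which reached 5 RPM. The members and lists were chosen with earlier results of these data known. Named genes are all members with a gene name, the 3 marker models, the 10 members with the highest mean, the 5 with the lowest ratio, the 3 nearest each limit on either side, and the BETL and ESR lists. Unnamed members of the runs and of the 7-model group were chosen after their values were seen. No sequences of these genes were used here.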

Additional observations from a re-analysis of the deposited data

Results flagged for a closer look

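Of 58 sets of 4 library values examined, from 51 named models and the summed levels of the members and of 6 lists, 1 had a single library far from the rest. The ESR gene esr6 (GRMZM2G048353), which is no member because its mean is under 5 RPM, had 1.46, 1.47 and 1.68 RPM in replicates 1 to 3 and 0 RPM in replicate 4. The gap below its other libraries was 0.866 of its whole range, above Dixon's 95% critical value for 4 samples. Its levels rest on 5, 8, 8 and 0 reads. By chance about 1 in 20 such sets would be marked, and the members' low level in replicate 4 was set by the rule.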

How the results depend on the processing

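The count of 132 members depended most on the limits of the rule. It was 434 with a ratio limit of 2-fold and 215 without a level minimum, and all 132 were among each of these. It ran from 143 to 206 with one of replicates 1 to 3 left out, and from 91 to 193 under the other alternatives, with TMM and DESeq2 size factors giving 120 and 119. The count of members called by the chi-square test among replicates 1 to 3, 78 as reported, ran from 47 to 58 with 1 of the 3 libraries left out and from 73 to 77 under the other alternatives, where nearly equal members counted once, an alternative added after the data were seen, gave 73 of 123. The medians of log2 ratios between replicates 1 to 3 kept their direction in each setting tried, and the median SD stayed above that of all models, at 0.28 against 0.14 without replicate 1. Among 39 named members, 6 no longer met the ratio limit under at least 1 other pseudocount or scaling, and none changed sign. The planned promoter and protein results were not run, since no sequences were used here. No paired analysis was possible because all libraries belong to 1 group. Members with 3 reads or fewer in replicate 4 have ratios that the pseudocount partly sets.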
